A study of Mus musculus with 4 samples.

Results

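The 8 genes described here encode the machinery of antigen presentation on MHC class II in the mouse: the presenting chains H2-Aa, H2-Ab1 and H2-Eb1, the invariant chain Cd74, the peptide-loading chains H2-DMa, H2-DMb1 and H2-DMb2, and the transcriptional co-activator Ciita. They were chosen by name, 8 of 27998 genes counted, and all 8 were found under 1 identifier each. They were read in lymphoid-primed multipotent progenitors (LMPPs), bone marrow cells upstream of lymphocytes that keep some myeloid potential, sorted by flow cytometry from C57BL/6 mice and captured in 10x Genomics droplets. RBPJ, the DNA-binding protein that carries Notch receptor signals to target genes, was the protein varied. The groups were LMPPs from mice described as without RBPJ (uninduced), LMPPs from mice that began without RBPJ and had it switched on by doxycycline for 3 or 6 days, and LMPPs from control mice that always had it. Doxycycline was given by abdominal injection at 2 mg/ml and then at 1 mg/ml in drinking water. This treatment is written beside every library, so it is not clear from the labels whether uninduced and control mice also had it. The labels do not name the promoter that drives the inducible RBPJ, the alleles used to remove it, or how many mice were pooled.

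Class II molecules carry peptides from the endosome to the cell surface for inspection by CD4 T cells. The alpha and beta chains assemble on the invariant chain, which is then cut away, and the DM heterodimer exchanges its last fragment for peptide. In blood-forming tissue the full programme is known from B cells, dendritic cells and activated macrophages, and it is switched on by CIITA, which binds no DNA itself but docks on a factor complex at a conserved promoter module.

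Each group had 1 library, with 2769, 1292, 2129 and 2693 cells (uninduced, 3-day, 6-day and control) in the authors' cell sets and a median of 6774, 7641.5, 7353 and 7920 UMIs (unique molecular identifiers, 1 per captured transcript) per cell. Levels are the UMIs of a gene over all cells of a library, scaled to the same total in every library and written as CPM, counts per 1000000 UMIs. A lone library gives no replicate check, so differences of preparation and of group cannot be told apart. The 95% intervals in brackets cover counting error only, not the spread between cells or mice. Fewer cells of a type and less RNA per cell cannot be told apart in a level summed over cells. Pairs of libraries shared 2 to 17 cell barcodes. Rbpj stood at 11.2 CPM, 508 CPM, 485 CPM and 17.8 CPM in uninduced, 3-day, 6-day and control cells. Its transcript was thus lower but not absent in the library labelled uninduced, and since the deleted part of the gene is not given in the sources used here, that level does not check the label. LMPP genes were present throughout, with a UMI of Flt3, the cytokine receptor used to define these cells, in 57.96%, 58.6%, 58.1% and 63.3% of uninduced, 3-day, 6-day and control cells thinned to 4700 UMIs. Markers of presenting cells were rare but not equal between libraries. Summed over 9 monocyte and macrophage genes, each detected in under 5% of the cells of every library, they stood at 25.8, 36.8, 23.7 and 7.45 CPM in uninduced, 3-day, 6-day and control cells. The members of this list did not move together. Ly6c2 alone gave 14.7, 29.96, 19.99 and 3.87 CPM of this sum. C1qb, a complement gene of macrophages, stood at 2.91, 0.376, 0.115 and 0.383 CPM in the same order. The same sum over 7 B cell genes stood at 15.7, 17.2, 22.97 and 7.91 CPM, and over 9 dendritic cell genes at 6.49, 7.23, 9.05 and 9.32 CPM. At 0 were Clec9a, Cd209a and Klk1 in uninduced, Cd209a, Zbtb46, Klk1, Ms4a7 and Ms4a1 in 3-day, Cd209a, Zbtb46 and Klk1 in 6-day, and Clec9a and Adgre1 in control cells.

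In GRCm38, 6 of the 8 genes lie on chromosome 17, in the order H2-DMa (34119541 to 34139101, plus strand), H2-DMb2 (34143307 to 34151555, plus), H2-DMb1 (34153072 to 34160230, plus), H2-Ab1 (34257689 to 34269419, plus), H2-Aa (34282744 to 34287823, minus) and H2-Eb1 (34305867 to 34316674, plus). RefSeq promoter entries (GRCm38.p6, 250 bases before to 50 after the start) matched 5 of the 8. H2-Ab1 and Ciita had none. Cd74 was left out of this search, so its promoter was not read. The sequences below are shown because they let H2-Aa and H2-Eb1, which differed by more than 1.5-fold between libraries, be read beside DM genes that did not. They run 5′ to 3′ on the strand of the gene. Capitals mark every match, on either strand, to GATTGG (the core of the Y box, which NF-Y binds), CNNATGATG (letters of the X box, which RFX binds) and TGACGTCA (the CREB and ATF element). These letters were chosen after the sequences had been read, and no 2 matches overlap apart from the TGACGTCA palindrome with itself. The windows are chr17:34287774-34288073 (minus) for H2-Aa, chr17:34305617-34305916 (plus) for H2-Eb1, chr17:34152941-34153240 (plus) for H2-DMb1, chr17:34144999-34145298 (plus) for H2-DMb2 and chr17:34122582-34122881 (plus) for the first of 2 entries of H2-DMa.
H2-Aa: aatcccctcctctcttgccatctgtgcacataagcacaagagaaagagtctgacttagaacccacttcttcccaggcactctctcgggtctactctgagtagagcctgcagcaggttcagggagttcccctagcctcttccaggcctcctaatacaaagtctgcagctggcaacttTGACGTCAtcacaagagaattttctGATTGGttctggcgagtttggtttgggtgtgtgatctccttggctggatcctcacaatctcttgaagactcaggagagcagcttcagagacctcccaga
H2-Eb1: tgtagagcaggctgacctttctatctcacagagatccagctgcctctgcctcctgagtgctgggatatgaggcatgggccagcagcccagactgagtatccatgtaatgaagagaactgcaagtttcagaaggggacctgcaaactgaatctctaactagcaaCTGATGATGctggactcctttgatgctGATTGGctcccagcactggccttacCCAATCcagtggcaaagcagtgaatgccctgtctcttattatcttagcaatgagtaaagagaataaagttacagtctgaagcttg
H2-DMb1: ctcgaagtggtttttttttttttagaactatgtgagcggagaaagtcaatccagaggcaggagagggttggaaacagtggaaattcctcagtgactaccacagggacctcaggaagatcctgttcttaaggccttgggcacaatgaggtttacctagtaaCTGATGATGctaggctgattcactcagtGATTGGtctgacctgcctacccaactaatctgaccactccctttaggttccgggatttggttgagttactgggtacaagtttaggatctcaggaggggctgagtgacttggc
H2-DMb2: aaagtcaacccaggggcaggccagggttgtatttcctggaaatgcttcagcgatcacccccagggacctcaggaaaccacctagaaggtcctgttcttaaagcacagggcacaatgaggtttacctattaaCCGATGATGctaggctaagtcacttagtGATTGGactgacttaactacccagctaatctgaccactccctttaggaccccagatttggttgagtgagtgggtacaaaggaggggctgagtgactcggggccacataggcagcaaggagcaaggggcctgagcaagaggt
H2-DMa: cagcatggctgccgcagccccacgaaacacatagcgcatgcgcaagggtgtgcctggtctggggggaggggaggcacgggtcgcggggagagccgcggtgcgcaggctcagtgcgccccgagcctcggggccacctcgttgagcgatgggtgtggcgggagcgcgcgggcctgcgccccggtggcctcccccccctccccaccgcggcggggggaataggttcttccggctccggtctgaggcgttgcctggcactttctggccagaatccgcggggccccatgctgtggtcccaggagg

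The X box letters stood upstream of a Y box core in H2-Eb1, H2-DMb1 and H2-DMb2, at -87 to -79, -90 to -82 and -119 to -111 from the start. H2-Aa held the CREB and ATF element at -74 to -67 and a Y box core at -49 to -44. Of 32851 promoter windows of this length, 16.1% held GATTGG, 2.75% CNNATGATG and 1.79% TGACGTCA on either strand, and 0.341% held both X box letters and a Y box core. The first H2-DMa window held none of the 3 motifs and had 73% G and C and 29 CpG pairs, against medians of 52.7% and 7 over all windows. It also spans the annotated start of Brd2, a neighbouring gene on the opposite strand. The second H2-DMa entry held GATTGG alone, at -199 to -194. A match is a run of letters, not a measured site.

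Cd74 lies apart from these genes on chromosome 18 (60803848 to 60812652, plus) and Ciita on chromosome 16 (10480059 to 10528418, plus), and all 8 are annotated as protein coding. The presenting chains come first in the order of roles. H2-Aa, the alpha chain of I-A, stood at 62.3 CPM (58.9 to 65.8), 36.3 CPM (32.8 to 40.2), 36.6 CPM (33.8 to 39.6) and 49.8 CPM (47.01 to 52.8) in uninduced, 3-day, 6-day and control cells. H2-Ab1, the beta chain of I-A, stood at 117 CPM (112 to 121), 95.7 CPM (89.9 to 102), 88.6 CPM (84.2 to 93.1) and 101 CPM (97.4 to 106) in the same libraries. H2-Eb1, the I-E beta chain, whose alpha partner C57BL/6 mice do not make, stood at 44.1 CPM (41.3 to 47.1), 24.5 CPM (21.6 to 27.7), 23.9 CPM (21.7 to 26.4) and 32.7 CPM (30.4 to 35.1). For H2-Aa and H2-Eb1 the order was uninduced, control, then both induced libraries, whose intervals overlapped each other and no other library. For H2-Ab1 uninduced cells were highest, control and 3-day intervals overlapped, and so did those of 3-day and 6-day cells.

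Cd74, the invariant chain that escorts the presenting chains and also serves as a receptor for the cytokine MIF, stood at 158 CPM (153 to 164), 84.5 CPM (79.1 to 90.2), 111 CPM (106 to 116) and 113 CPM (109 to 118) in uninduced, 3-day, 6-day and control cells. Uninduced cells were highest and 3-day cells lowest, and the 6-day and control intervals overlapped.

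The peptide-loading genes varied less. H2-DMa, the alpha chain of DM, stood at 228 CPM (221 to 234), 224 CPM (215 to 233), 212 CPM (205 to 219) and 210.0 CPM (204 to 216) in uninduced, 3-day, 6-day and control cells. H2-DMb1, one of the alternative DM beta chains, stood at 45.1 CPM (42.3 to 48.1), 37 CPM (33.4 to 40.8), 38.4 CPM (35.6 to 41.5) and 44.2 CPM (41.5 to 46.9). H2-DMb2, the other beta chain, stood at 11.9 CPM (10.5 to 13.5), 8.26 CPM (6.63 to 10.2), 10.1 CPM (8.65 to 11.7) and 10.2 CPM (8.96 to 11.6). The H2-DMa levels lay within 1.08-fold of each other, and the H2-DMb2 intervals overlapped between all neighbours in the order. Over the last 500 bases of their transcripts, 25.3% of the 31-base words of H2-DMb1 and 25.4% of those of H2-DMb2 occur in another gene. For H2-DMb1 most of these words lie in H2-DMb2 transcripts, and its count is uncertain where the counting could split reads between the copies. For H2-DMb2 most lie in transcripts annotated to Zw10, and 0.8403% lie in another member.

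Ciita was close to the limit of detection. It had 24, 6, 13 and 20 UMIs in uninduced, 3-day, 6-day and control cells, which is 1.15 CPM (0.734 to 1.704), 0.563 CPM (0.207 to 1.23), 0.745 CPM (0.397 to 1.27) and 0.851 CPM (0.5198 to 1.31). All 4 intervals overlapped, and no difference between libraries was detectable at this depth. Ciita overlaps Dexi on the opposite strand at its end, and whether counting used strand is not given in the sources used here. Summed over the 8 genes, class II transcripts came to 667 CPM, 511 CPM, 521 CPM and 563 CPM in uninduced, 3-day, 6-day and control cells, of which H2-DMa gave 34.2%, 43.8%, 40.6% and 37.3%.

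**Figure D1:**
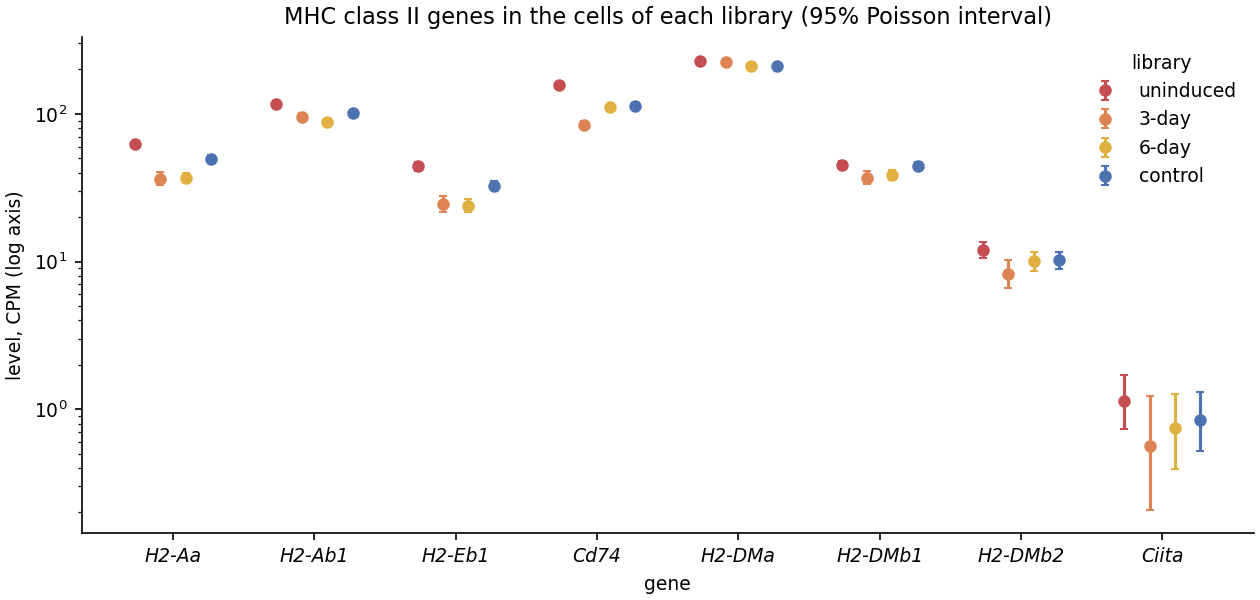
Levels of the 8 class II genes in CPM on a log axis, 1 point per library with its 95% Poisson interval, in the order uninduced, 3-day, 6-day and control. H2-Aa stands at 62.3, 36.3, 36.6 and 49.8 CPM and H2-Eb1 at 44.1, 24.5, 23.9 and 32.7 CPM in that order, with both induced libraries lowest, while H2-DMa spans 210.0 to 228 CPM.

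Uninduced against control cells addressed what differs in LMPPs labelled as lacking RBPJ. A gene was counted when its CPM + 1 differed at least 1.5-fold and its level reached 2 CPM in at least 1 library of the pair. Ciita never reached that level. None of the 7 other members passed 1.5-fold in either direction, where 1.05% of 10542 genes were higher and 1.28% lower. The folds over control were 1.396 (1.33 to 1.47) for Cd74, 1.35 (1.23 to 1.49) for H2-Eb1, 1.25 (1.15 to 1.35) for H2-Aa and 1.15 (1.09 to 1.22) for H2-Ab1. H2-DMa stood at 1.08 (1.04 to 1.13), H2-DMb1 at 1.02 (0.934 to 1.12) and H2-DMb2 at 1.17 (0.975 to 1.401). The median log2 ratio of the 7 was 0.21, against -0.08 over all genes counted. A few cells held much of this difference. Without the 10 cells richest in class II UMIs in each library, the folds were 1.18 for Cd74, 1.16 for H2-Eb1 and 1.11 for H2-Aa.

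The 3-day and 6-day libraries were set against uninduced cells to see what accompanied the return of RBPJ. At 3 days 3 of the 7 members were at least 1.5-fold lower, where 1.58% of 10505 genes were, and none was higher, where 1.06% were. They were Cd74 at 0.534 (0.496 to 0.575), H2-Eb1 at 0.555 (0.482 to 0.638) and H2-Aa at 0.584 (0.5196 to 0.654) of the uninduced level. The partner chain of H2-Aa, H2-Ab1, stood at 0.821 (0.762 to 0.883), H2-DMb1 at 0.8204 (0.728 to 0.924), H2-DMb2 at 0.693 (0.537 to 0.887) and H2-DMa at 0.983 (0.935 to 1.03). At 6 days 2 of 7 were at least 1.5-fold lower, where 0.531% of 10543 genes were, and none was higher, where 1.11% were. These were H2-Eb1 at 0.542 (0.482 to 0.6095) and H2-Aa at 0.588 (0.534 to 0.647), and Cd74 stood at 0.704 (0.665 to 0.745). The median log2 ratio of the 7 was -0.48 at 3 days and -0.39 at 6 days, against -0.02 and -0.02 over all genes. Both comparisons share the uninduced library.

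Against control, no member passed 1.5-fold at 3 days, where 2.81% of 10551 genes were lower and 1.44% higher, or at 6 days, where 0.435% of 10573 were lower and 1.01% higher. H2-Aa stood at 0.7295 (0.649 to 0.819) of its control level at 3 days and 0.735 (0.666 to 0.8098) at 6 days, and H2-Eb1 at 0.7502 (0.649 to 0.864) and 0.733 (0.649 to 0.827). Cd74 stood at 0.746 (0.691 to 0.805) of control at 3 days and 0.983 (0.927 to 1.04) at 6 days. The 6-day over the 3-day library gave 1.32 (1.22 to 1.43) for Cd74 and 1.01 (0.886 to 1.15) for H2-Aa, and no member passed 1.5-fold, where 2.42% of 10543 genes were higher and 1.25% lower.

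Most other genes of the pathway, like most of all genes, stayed within 1.5-fold. H2-Oa and H2-Ob, the chains of DO, which restrains DM, did so in all 6 comparisons. H2-Oa stood at 27.01, 25.1, 25.4 and 26 CPM and H2-Ob at 61.7, 68.5, 67.6 and 60.4 CPM in uninduced, 3-day, 6-day and control cells. The H2-Ob promoter window also holds the X box letters (-83 to -75) and a Y box core (-58 to -53). None of 10 genes for the factors that bind the class II promoter module or are recruited to it passed 1.5-fold in any of the 6 comparisons. Of all genes 1.45% to 4.25% passed either way, so a count of 0 in a list of this size is near that share. Rfx5, a subunit of the RFX complex, stood at 10.8, 9.204, 9.45 and 9.45 CPM in uninduced, 3-day, 6-day and control cells. None of 16 MHC class I genes passed in any either, against the same shares of all genes. B2m, the light chain of class I, stood at 3045, 3072, 2785 and 2646 CPM in the same order. Of 12 genes of the interferon gamma pathway, which is known to induce Ciita outside presenting cells, none passed in uninduced against control, 3-day against uninduced or 6-day against control cells. Of all genes 2.33%, 2.64% and 1.45% passed either way in these comparisons. At 6 days 2 of 12 were lower than in uninduced cells, where 0.531% of all genes were, Gbp2 (0.627) and Iigp1 (0.613), both interferon-induced GTPases. Irgm1, another of these GTPases, stood at 0.4702 (0.386 to 0.569) of its control level at 3 days, the 1 of 12 that was lower there, where 2.81% of all genes were. At 6 days it stood at 1.802 (1.47 to 2.21) times its 3-day level, the 1 of 12 that was higher, where 2.42% of all genes were.

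Genes of antigen processing included larger differences. Of the 7 that reached 2 CPM, 3 were at least 1.5-fold higher in uninduced than in control cells, where 1.05% of all genes were, and none was lower, where 1.28% were. Lgmn, an asparagine-specific endosomal protease, stood at 32.4 CPM in uninduced against 10.7 CPM in control cells, a fold of 3.03 (2.62 to 3.52). Ifi30, a thiol reductase of the endosome, stood at 3.82 against 2.08 CPM and March8, a ubiquitin ligase that removes class II from the surface, at 3.53 against 1.91 CPM. In induced cells Lgmn stood at 21.4 CPM at 3 days and 18.8 CPM at 6 days, between the uninduced and the control level. Against uninduced cells 1 of the 7, March8, was at least 1.5-fold lower at 3 days, where 1.58% of all genes were, and 2, Lgmn and Ifi30, were at 6 days, where 0.531% were. Against control cells Lgmn alone was higher, at 3 days among 6 genes that reached 2 CPM, where 1.44% of all genes were, and at 6 days among 7, where 1.01% were. Ctss, the cathepsin that trims the invariant chain, was chosen after its values were seen and stood at 51.3, 49.02, 43.4 and 44.97 CPM in uninduced, 3-day, 6-day and control cells. Of the costimulatory genes, Cd86 stood at 8.21, 6.48, 10.3 and 9.53 CPM in the same order, and Cd40 had no UMI in any library.

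How many cells held these transcripts was measured after each cell was thinned to 4700 UMIs, which left 2093, 1088, 1755 and 2342 uninduced, 3-day, 6-day and control cells. Cd74 was detected in 23.6% (21.8 to 25.4), 20.2% (17.9 to 22.7), 20.9% (18.98 to 22.8) and 24.4% (22.7 to 26.2) of them. The order of uninduced and control cells depended on the depth, since at 2500 UMIs Cd74 was detected in 20.95% (19.4 to 22.5) of uninduced and 18.8% (17.3 to 20.3) of control cells. The intervals of these libraries overlapped at both depths. H2-Aa was detected in 16.96% (15.4 to 18.6), 12.7% (10.8 to 14.8), 12.4% (10.9 to 14) and 16.95% (15.5 to 18.5) of uninduced, 3-day, 6-day and control cells, with the shares of both induced libraries below the other two beyond counting error. H2-Eb1 was detected in 12.7% (11.3 to 14.2), 9.56% (7.88 to 11.5), 8.49% (7.23 to 9.89) and 11.6% (10.3 to 12.9), and H2-Ab1 in 35.8% (33.8 to 37.9), 33.2% (30.4 to 36.1), 29.7% (27.6 to 31.9) and 34.5% (32.6 to 36.5). For H2-Eb1 and H2-Ab1 the 3-day interval overlapped that of uninduced cells.

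H2-DMa was the member found in most cells, in 64.7%, 62.9%, 60.5% and 61.5% of thinned uninduced, 3-day, 6-day and control cells. H2-DMb1 was found in 20.1%, 16.7%, 16.5% and 19.2%, and H2-DMb2 in 4.78%, 3.95%, 4.79% and 4.65%. Ciita was found in 11, 1, 6 and 9 cells. Before thinning the shares were 33.4%, 27.2%, 28.8% and 33.8% for Cd74 and 76.5%, 77.1%, 75.2% and 77.2% for H2-DMa.

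Free RNA can put UMIs in cells that do not make a transcript, so the shares were set beside those in 61 neutrophil-marked cells of all 4 libraries thinned to the same 4700 UMIs (2 or more raw UMIs over Ltf, Lcn2 and Elane, 85 cells with a median of 6893 UMIs before thinning). There Cd74 was found in 8.197% (2.72 to 18.1), H2-Ab1 in 6.56% (1.82 to 15.9), H2-Aa in 1.64% (0.0415 to 8.799) and H2-DMa in 21.3% (11.9 to 33.7). These 4 shares were below those of all cells of any library, beyond counting error for H2-Aa, H2-Ab1 and H2-DMa in every library and for Cd74 in uninduced, 6-day and control cells. H2-Eb1 was found in 4.92% (1.03 to 13.7) and H2-DMb1 in 9.84% (3.696 to 20.2), with intervals that reach the shares of all cells. H2-DMb2 was found in 4.92% (1.03 to 13.7) of them, and in 0 of 85 at 2500 UMIs, which allows a share of up to 3.53%, against 3.67%, 2.57%, 2.84% and 3.05% of all uninduced, 3-day, 6-day and control cells at that depth. In erythroid-marked cells it was found in 0 of 22 at 4700 UMIs, which allows up to 13.6%. Ciita was found in 0 of 61 neutrophil-marked cells at 4700 UMIs, and 3 counts, the limit used for a count of 0, allow a share of up to 4.92%. At 4700 UMIs these cells are too few to set the shares of H2-Eb1, H2-DMb1, H2-DMb2 and Ciita apart from free RNA, or that of Cd74 in 3-day cells. At 2500 UMIs Cd74 was found in 0 of 85, which allows up to 3.53%, against 14.03% (12.2 to 16.1) of 3-day cells. H2-Eb1 was found in 1.18% (0.0298 to 6.38) of the 85, against 9.35% (8.29 to 10.5) of uninduced and 7.78% (6.8 to 8.86) of control cells. The H2-Eb1 intervals of 3-day and 6-day cells overlapped that of the 85 cells. Barcodes of 10 to 100 UMIs held Cd74 at 108, 95, 121 and 92.9 CPM and H2-DMa at 243, 215, 224 and 191 CPM in uninduced, 3-day, 6-day and control libraries. For Cd74 this was above the level in cells in the 3-day and 6-day libraries and below it in the uninduced and control libraries. For H2-DMa it was above the level in cells in the uninduced and 6-day libraries and below it in the 3-day and control libraries. These barcodes held only 464854, 315789, 1118387 and 1721508 UMIs in uninduced, 3-day, 6-day and control libraries. The counting error of their levels is not given here, so these directions are of point values only.

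Cells differed widely in how many UMIs they held. The 10 cells richest in Cd74 carried 23.5%, 20%, 19.8% and 9.58% of its UMIs in uninduced, 3-day, 6-day and control cells. Over genes at 10 CPM or more the median of this share was 4.55%, 8.101%, 5.69% and 4.32% and the 90th percentile 8.26%, 14.3%, 9.9% and 7.59%, so Cd74 lay above the 90th percentile in all 4 libraries. H2-Eb1 (20.5%, 18.01%, 14.8% and 7.94%) also did. So did H2-DMb2 (9.6%, 14.8%, 12.5% and 9.58%), though no cell held more than 4, 2, 5 and 3 of its UMIs in the same order. H2-Aa (17.01%, 13.7%, 14.2% and 6.75%) lay above the 90th percentile in uninduced and 6-day cells, and H2-Ab1 (11.1%, 7.36%, 7.37% and 4.11%) in uninduced cells. The percentiles were not matched to the level of each member, and how far level sets a gene's place among them was not tested. H2-DMa was spread evenly, with 2.09%, 3.73%, 2.52% and 1.92% in its 10 top cells, below the 10th percentile of 2.25%, 4.101%, 3.02% and 2.18%. The libraries differ in how many cells they hold, so a share in 10 cells is read against other genes of the same library. The smallest number of cells holding 50% of the UMIs was 105, 55, 74 and 151 for Cd74 and 580, 264, 424 and 576 for H2-DMa.

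**Figure D2:**
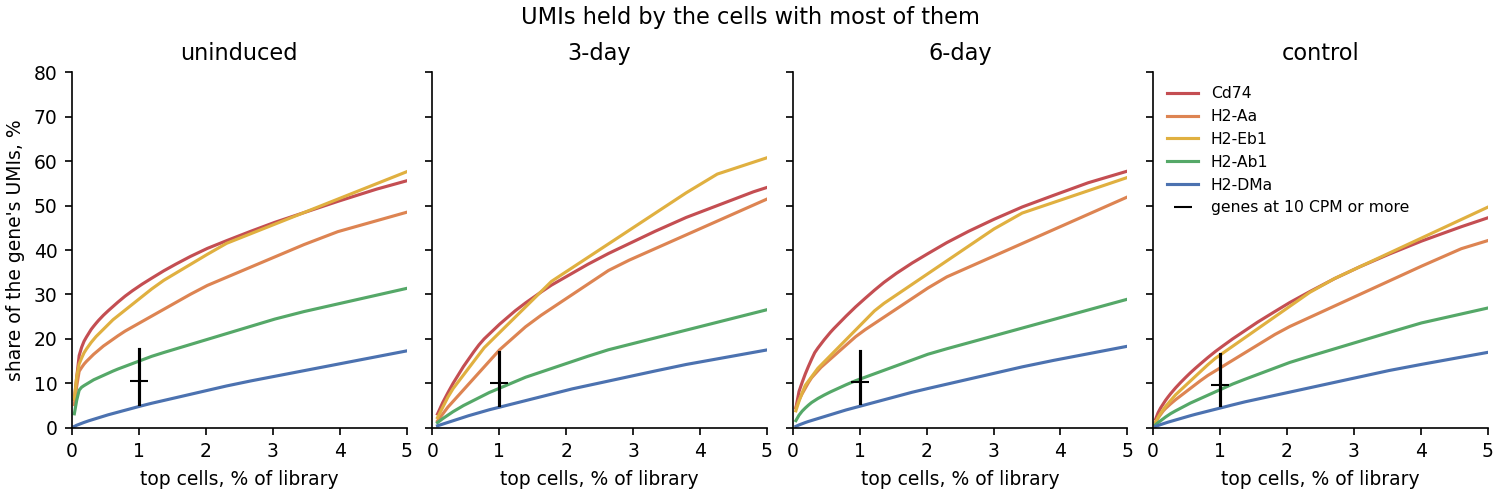
Cumulative share of a gene's UMIs held by the top cells, in % of the cells of the library ranked by that gene, for 5 class II genes in each library. The black bar at 1% of cells spans the 10th to the 90th percentile of genes at 10 CPM or more, with its median. Cd74 reaches 31.9%, 23.3%, 27.9% and 17.99% at 1% of uninduced, 3-day, 6-day and control cells, and H2-DMa stays at 4.84%, 4.65%, 4.79% and 4.46%.

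The cells at the head of this ranking included some with markers of mature presenting cells. In the uninduced library 3 cells held 213, 166 and 160 Cd74 UMIs, with 76, 77 and 54 of H2-Ab1 and 60, 26 and 47 of H2-Eb1, and no UMI of Flt3 or Dntt, the template-independent polymerase of early lymphoid cells. The first also held 28 UMIs of C1qa and 45 of C1qb, complement genes of macrophages, and 152 of the lysozyme gene Lyz2. The second held 171 of Lyz2 and 1 of C1qb, and the third 14 of Irf8, a factor of dendritic cells. The highest Cd74 counts in other libraries were 28, 87 and 52 in 3-day, 6-day and control cells. The control cell held 9 UMIs of Siglech, a plasmacytoid dendritic cell gene, and 19 of Irf8, and the 6-day cell held 9 of Cd79a and 4 of Ms4a1, B cell genes. Not all leading cells were of this kind, since a 6-day cell with 72 Cd74 UMIs held 7 of Tmem158 and 4 of Flt3, and the 3-day cell richest in class II held 48 of Dntt.

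Cells with 2 or more UMIs over the narrow lists of B cell, dendritic cell, or monocyte and macrophage genes numbered 66, 37, 75 and 51 in uninduced, 3-day, 6-day and control libraries. They held 22.7%, 4.44%, 16.8% and 6.38% of the Cd74 UMIs against 3.04%, 3.201%, 3.21% and 2.52% of all UMIs. Cd74 stood at 1183, 117, 583 and 287 CPM in them, and H2-DMa at 231, 149.6, 137 and 211 CPM. Leaving these cells out, a choice made after the data had been seen, brought Cd74 to 1.16 of control in uninduced cells. The 3-day folds over uninduced cells were then 0.662 for Cd74, 0.676 for H2-Aa and 0.663 for H2-Eb1. On the CPM + 1 scale 1 of the 7 members was then at least 1.5-fold lower at 3 days, against 3 with all cells. With all cells 1.58% of all genes were lower, and the share of all genes without the marked cells is not given here. At 6 days H2-Aa stood at 0.637 and H2-Eb1 at 0.633 of the uninduced level without them.

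**Figure D3:**
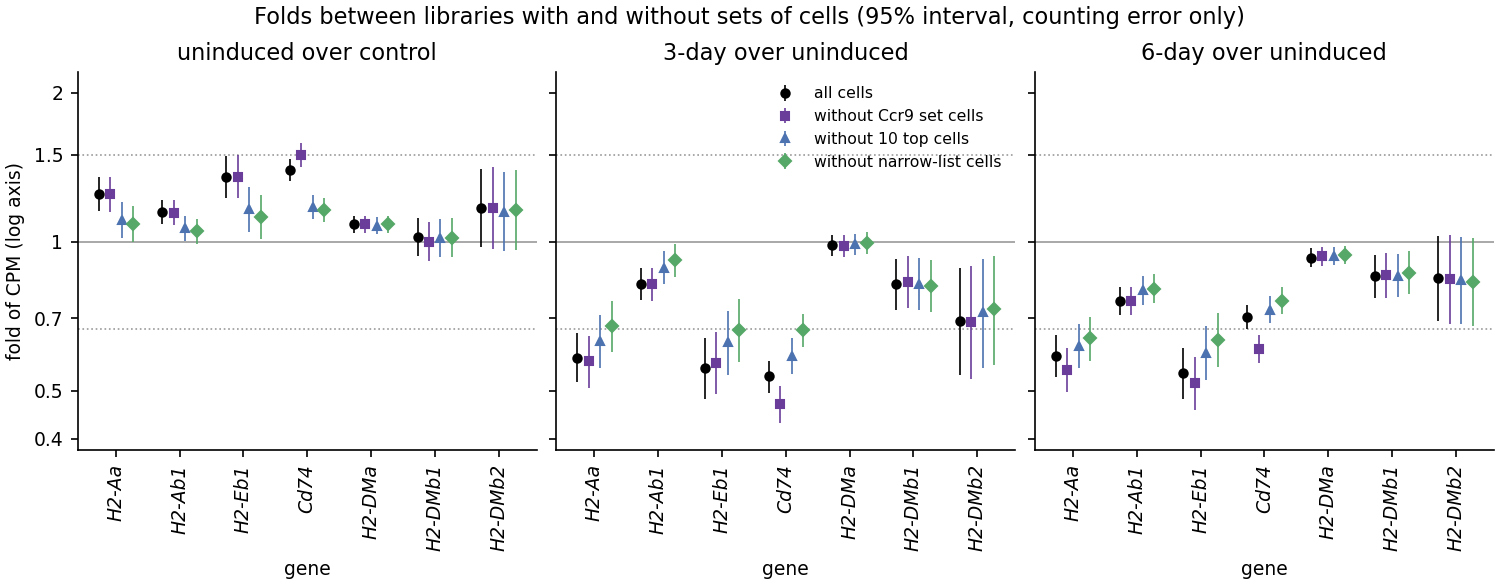
Folds of CPM on a log axis with 95% intervals for counting error, for 7 class II genes in 3 comparisons, over all cells and without 3 sets of cells: those of the Ccr9 set, the 10 richest in class II UMIs, and those of the narrow marker lists. Dotted lines mark 1.5-fold either way. Without the narrow-list cells the Cd74 fold is 1.16 in place of 1.396 for uninduced over control and 0.662 in place of 0.534 for 3-day over uninduced.

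Cells marked by Ccr9, the receptor for the chemokine that draws cells to thymus and gut, together with Tmem158 and Gria2, were defined by 2 or more UMIs summed over these genes. There were 161, 76, 155 and 162 in uninduced, 3-day, 6-day and control libraries, or 5.81% (4.97 to 6.75), 5.88% (4.66 to 7.31), 7.28% (6.21 to 8.47) and 6.02% (5.15 to 6.98) of cells. Their median depth was 4877, 5602.5, 5535 and 5736.5 UMIs, against 6853.5, 7790, 7509.5 and 8061 in all other cells. Cd74 stood at 548 against 139 CPM in set and other cells of the uninduced library, a fold of 3.94 (3.58 to 4.32). It stood at 481 against 65.5 CPM in the 3-day library, a fold of 7.34 (6.301 to 8.53), at 516 against 84.6 CPM in the 6-day library, a fold of 6.103 (5.52 to 6.74), and at 516 against 92.97 CPM in the control library, a fold of 5.55 (5.05 to 6.08). The level inside the set thus varied less between libraries than the level outside it.

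In these cells Cd74 stood apart from the presenting chains. H2-Ab1 stood at 124 against 116 CPM in set and other cells of the uninduced library, 102 against 95.4 CPM in the 3-day, 92.4 against 88.3 CPM in the 6-day and 99.1 against 102 CPM in the control library, with folds of 1.06 (0.878 to 1.28), 1.07 (0.7901 to 1.43), 1.05 (0.845 to 1.28) and 0.975 (0.799 to 1.18). H2-Aa was above 1 in all 4, at 1.45 (1.15 to 1.81), 1.87 (1.26 to 2.69), 2.45 (1.93 to 3.07) and 1.37 (1.07 to 1.73) in uninduced, 3-day, 6-day and control libraries. H2-Eb1 stood at 1.56 (1.19 to 2.005), 1.001 (0.5105 to 1.78), 2.196 (1.61 to 2.93) and 1.59 (1.19 to 2.08) in the same order, so that the 3-day library showed no excess. H2-DMa lay within 0.874 to 0.986, and H2-DMb2 within 1.62 to 1.796 on 7 to 19 UMIs inside the set. Ciita had 0, 0, 1 and 0 UMIs inside it. In thinned cells Cd74 was found in 61.4% (50.1 to 71.9), 50% (35.8 to 64.2), 59.2% (48.8 to 69.01) and 58.6% (48.8 to 67.8) of set cells, against 21.99%, 18.7%, 18.6% and 22.7% of other cells of uninduced, 3-day, 6-day and control libraries.

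**Figure D4:**
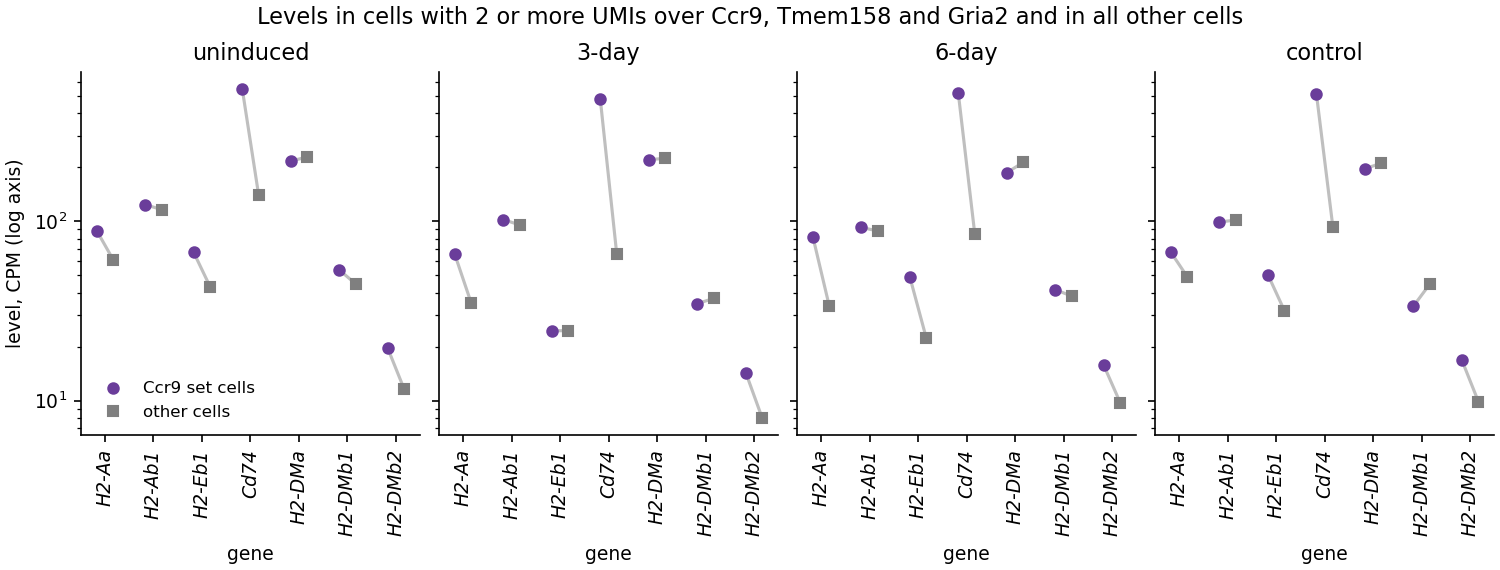
Levels of 7 class II genes in CPM on a log axis in cells with 2 or more UMIs over Ccr9, Tmem158 and Gria2 and in all other cells of each library. The Cd74 fold of set over other cells spans 3.94 to 7.34, while that of H2-Ab1 spans 0.975 to 1.07 and that of H2-DMa 0.874 to 0.986.

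The Cd74 level followed the marker sum in steps. With 0, 1, 2, and 3 or more marker UMIs it stood at 135, 169, 312 and 748 CPM in uninduced, 63.3, 81.7, 292 and 734 CPM in 3-day, 78.1, 145, 268 and 674 CPM in 6-day and 84.3, 161, 342 and 632 CPM in control cells. A marker sum of 1, just outside the definition, was found in 318, 146, 210 and 310 cells, and a sum of 2 in 73, 45, 65 and 64 cells of uninduced, 3-day, 6-day and control libraries, so the set is the upper part of a range of sums, and whether it holds a separate type was not tested. Flt3 was higher in set than in other cells by 1.36, 1.36, 1.28 and 1.38 times in uninduced, 3-day, 6-day and control libraries. Dntt stood at 0.865 (0.793 to 0.941), 0.973 (0.877 to 1.08), 0.783 (0.726 to 0.844) and 0.9897 (0.923 to 1.06) and Cd34, a surface protein of early progenitors, at 0.9897 (0.897 to 1.09), 1.01 (0.8796 to 1.15), 0.818 (0.734 to 0.909) and 1.03 (0.941 to 1.12) of the other cells, so Dntt was lower in set cells of the uninduced and 6-day libraries and Cd34 in those of the 6-day library beyond counting error. Cd7, an early lymphoid surface receptor, was higher by 10.2, 14.6, 14.6 and 12.6 times. Ctss was higher by 1.73, 1.68, 1.96 and 1.91 times, and Irf8 stood at 0.646, 0.419, 0.697 and 0.726 of the other cells. Siglech had 2.06, 0, 6.46 and 7.96 CPM in set cells, against 0.2502, 0.0984, 0.733 and 0.6704 CPM in other cells of uninduced, 3-day, 6-day and control libraries. Its folds were 8.24 (0.785 to 50.3), 8.82 (2.94 to 24.3) and 11.9 (4.58 to 28.96) in uninduced, 6-day and control cells, above 1 beyond counting error in the 6-day and control libraries. Of the cells with narrow markers, the set held 1, 0, 0 and 0 of 15, 9, 20 and 11 with B cell genes and 1, 1, 5 and 5 of 10, 5, 18 and 21 with dendritic cell genes in uninduced, 3-day, 6-day and control libraries. It held 2, 0, 0 and 0 of 42, 24, 38 and 20 with monocyte and macrophage genes. The part of dendritic cells in the class II levels of the set was not tested.

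Without the set, Cd74 stood at 1.498 of control in uninduced cells and at 0.47 and 0.607 of uninduced cells at 3 and 6 days. By these point values its differences between these libraries were larger outside the set than over all cells. The set held 16.05%, 26.1%, 28.8% and 21.9% of all Cd74 UMIs in uninduced, 3-day, 6-day and control cells, and 6.59%, 8.27%, 13.9% and 6.49% of those of H2-Aa. Without it the H2-Aa folds were 1.25, 0.573 and 0.551 for uninduced over control, 3-day over uninduced and 6-day over uninduced, against 1.25, 0.584 and 0.588 over all cells.

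Another range of progenitors gave lower values than the set. Cells with 2 or more UMIs over Il7r and Ly6d, genes of the common lymphoid step, held Cd74 at 171 CPM (150.2 to 194), 117 CPM (89.6 to 150.5), 93.6 CPM (80.8 to 108) and 112 CPM (98.2 to 126) in uninduced, 3-day, 6-day and control libraries. H2-Aa stood at 53.7, 46.1, 29.2 and 41.7 CPM in them.

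The split of UMIs between the beta chains of DM was read in ranges of cells. H2-DMb2 gave 20.9% (18.6 to 23.3), 18.3% (14.9 to 22), 20.8% (18.1 to 23.7) and 18.8% (16.7 to 21.03) of the UMIs of both beta chains in uninduced, 3-day, 6-day and control cells. Over the 4 libraries together it gave 59.6% (44.3 to 73.6) in the 55 cells with narrow B cell markers, 30% (24.6 to 35.9) in the Il7r and Ly6d range and 28.97% (22.99 to 35.5) in Ccr9 set cells, against 19.8% (18.6 to 21.1) over all cells. The B-marked cells gave 28 H2-DMb2 and 19 H2-DMb1 UMIs. By library the share in B-marked cells was 64.3%, 12.5%, 73.3% and 70% in uninduced, 3-day, 6-day and control cells, where the 3-day value rests on 1 H2-DMb2 and 7 H2-DMb1 UMIs. In the Il7r and Ly6d range it was 36.4% (25.7 to 48.1), 35% (15.4 to 59.2), 35.1% (24.5 to 46.8) and 19.8% (12.4 to 29.2), so the control value lay near that over all its cells. In set cells it was 26.8% (16.9 to 38.6), 29.2% (12.6 to 51.1), 27.4% (16.9 to 40.2) and 33.3% (21.4 to 47.1), with intervals that overlapped those over all cells in the uninduced, 3-day and 6-day libraries.

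Class II genes were also compared within single cells. In cells thinned to 4700 UMIs, Pearson correlations of the log counts, averaged over the 4 libraries, were 0.40 (0.35 to 0.50 by library) for Cd74 with H2-Aa, 0.40 (0.31 to 0.51 by library) for Cd74 with H2-Eb1 and 0.36 (0.27 to 0.48 by library) for H2-Aa with H2-Eb1. H2-Ab1 reached 0.25 with H2-Aa, 0.24 with Cd74 and 0.23 with H2-Eb1. Every pair of these genes had its highest value in the uninduced library. Marked cells were included, and values without them are not given here. Pairs with a DM gene averaged 0.01 to 0.07. The cells share library and depth, so these values are a description, and nothing is read from the low ones. H2-Aa and H2-Eb1 were found in the same cell in 5.92%, 3.401%, 3.59% and 5.38% of uninduced, 3-day, 6-day and control cells, 2.75, 2.805, 3.42 and 2.74 times the product of their shares. H2-Aa and H2-DMa were found together 1.09, 0.968, 1.05 and 1.04 times their product. Both chains of I-A with Cd74 were detected in 5.64%, 3.58%, 3.08% and 5.17% of cells. Of the cells with Cd74, 28.4%, 36.8%, 43.99% and 33.8% had none of the 3 presenting chains.

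**Figure D5:**
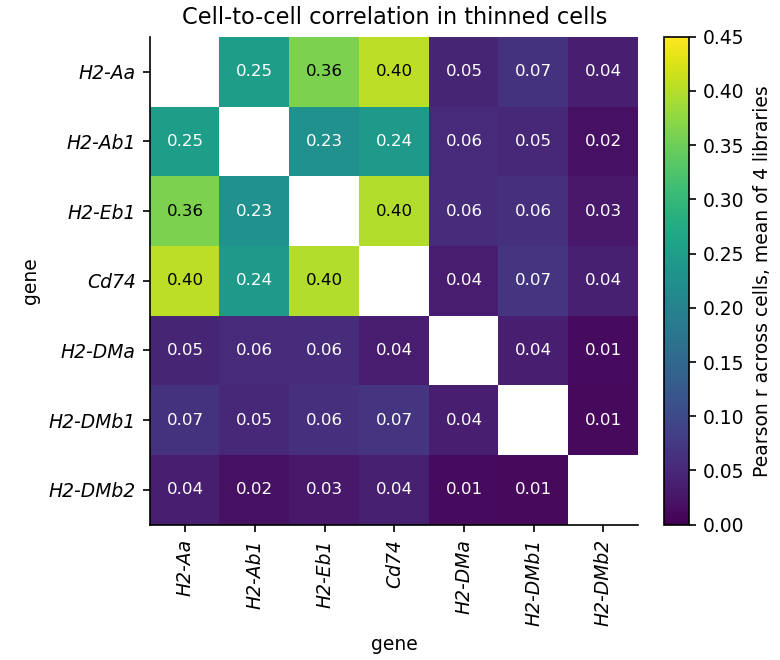
Mean over 4 libraries of the Pearson correlation across thinned cells between class II genes. The block of H2-Aa, H2-Ab1, H2-Eb1 and Cd74 lies between 0.23 and 0.40, and all pairs with a DM gene lie at or below 0.07.

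The genes most like the class II sum across thinned cells followed it only weakly. Of 8562 genes detected in 2% or more of the thinned cells of every library, the 10 with the highest mean correlation over the 4 libraries were B2m (0.15), Shisa5 (0.15), Malat1 (0.14), Ltb (0.13), Ly6a (0.12), H2-D1 (0.12), Cd7 (0.11), Car2 (0.11), Rps27 (0.11) and Ccr9 (0.11), where the 99th percentile was 0.06. Without the Ccr9 set and the narrow-list cells, Cd7 stood at 0.04 and Ccr9 at 0.03, and B2m at 0.12 and Shisa5 at 0.13.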

How the data were processed

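Libraries were 10x Genomics droplet libraries of sorted LMPPs, read on a NextSeq 500. The deposited matrices hold UMI counts for 27998 genes in every barcode, with no cell filter. Seurat and mm10 are named per the submitters' processing notes, while aligner and counter are not given in the sources used here. Beside these, the authors deposited log2 values per cell, the log2 of the count over a size factor, plus 1. Of the log2 values checked against the matrices, 0 of 13835, 6460, 10645 and 13460 (uninduced, 3-day, 6-day and control) were unequal at a tolerance of 1e-06. These tables served only to define the cells. Cells held 93.6%, 91.5%, 90.5% and 90.6% of all UMIs, in total 20952799, 10647894, 17455692 and 23504158.

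Counts were summed over cells and scaled to CPM. With 1 library a group no test was possible, so calls were by size (1.5-fold on log2 of CPM + 1, 2 CPM or more in either library), and no doublet caller was run. The 95% intervals cover counting error only: Clopper-Pearson for shares, exact Poisson for levels, and the exact conditional binomial for folds. Thinning to 4700 UMIs left out 676, 204, 374 and 351 shallower cells. The members and gene lists were chosen with earlier results of these data known. Narrow marker lists keep the genes detected in under 5% of the cells of every library, without Bank1. Named genes were all members, up to 2 genes each way of each other list, and the 10 most like the class II sum. Alternatives were TMM (edgeR 4.0.16) and DESeq2 1.42.0 size factors, a minimum of 10 CPM or none, thinning to 2500 UMIs, other marker sums, and leaving out marked or richest cells. The code ran on Python 3.11.15, numpy 2.4.6, scipy 1.17.1, pandas 2.3.3 and R 4.3.3 and was tested on simulated data.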

Additional observations from a re-analysis of the deposited data

How the results depend on the processing

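No paired analysis was possible because every group is a single library, and no replicate could be left out. The log2 ratio of the summed class II level was 0.25 for uninduced over control, and 0.32 with TMM, 0.33 with DESeq2 size factors, 0.17 without the cells with 3 or more UMIs over the wide presenting-cell lists, 0.14 without the 10 richest cells, 0.13 without the narrow-list cells and 0.12 without those and the Ccr9 set. With every cell of 1 or more Ccr9 set UMIs left out, 1 member was 1.5-fold higher. For 3-day over uninduced it was -0.38, and -0.29, -0.24 and -0.24 without the richest, narrow-list and both sets of cells, with 1 member 1.5-fold lower in each of the last 2 settings. For 6-day over uninduced it was -0.36, and -0.39 and -0.41 without cells of 2 and of 1 or more Ccr9 set UMIs, -0.25 without the wide-list cells, where 0 members were 1.5-fold lower, and -0.30, -0.28 and -0.31 without the richest, narrow-list and both sets. For 6-day over 3-day it was 0.030, and -0.029 without cells of 1 or more Ccr9 set UMIs, 0.12 without the wide-list, -0.033 without the narrow-list and -0.066 without both sets of cells, so its sign depended on the cells kept. For 3-day over control it was -0.14, and -0.059 with TMM, -0.042 with DESeq2 size factors and -0.21 without the wide-list cells, where 2 members were 1.5-fold lower. For 6-day over control it was -0.11, and -0.024 with TMM, -0.012 with DESeq2 size factors, -0.16 without the richest, -0.15 without the narrow-list and -0.19 without both sets of cells, where 1 member was 1.5-fold lower. The share of all genes that passed 1.5-fold in the same setting is not given here, so nothing is read from these counts of members. The cause of these shifts was not tested. The narrow lists and the removal of both sets were chosen after the data had been seen. The wide lists took 45.3 to 53.6% of cells, since LMPPs express some of their genes.

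The share of cells with Cd74 was 33.4, 27.2, 28.8 and 33.8% without thinning and 20.95, 14.03, 17.2 and 18.8% at 2500 UMIs in uninduced, 3-day, 6-day and control cells, so that uninduced cells lay above control cells at 2500 UMIs and below them at 4700, and 18.6% in 6-day cells outside the Ccr9 set. The 10 richest cells held 26.9, 21.9 and 10.9% of Cd74 UMIs in uninduced, 6-day and control cells without that set. The Cd74 fold of set over other cells was 2.08, 3.13, 3.79 and 3.21 for 1 or more UMIs, 5.23, 10.3, 7.55 and 6.46 for 3 or more and 4.79, 9.09, 8.01 and 6.28 for 2 or more in thinned cells. The H2-DMb2 fold in control cells turned to 0.867 at 1 or more UMIs. Scaling moved the median of all genes by up to 0.0974 (log2). Depth and the number of marked cells limit Ciita and H2-DMb2. At 4700 UMIs their shares, those of H2-Eb1 and H2-DMb1, and that of Cd74 in 3-day cells could not be set apart from free RNA. At 2500 UMIs the share of Cd74 in 3-day cells lay above that in neutrophil-marked cells beyond counting error. So did that of H2-Eb1 in uninduced and control cells.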
